A study of Mus musculus with 5 samples.

Results

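Genes of the extracellular matrix, of the integrins that bind it and of the proteases and inhibitors that remodel it were examined in adult mouse retina and newborn mouse cortex. They were chosen by gene symbol alone: collagens, laminins, nidogens, perlecan and agrin, elastic fibre and crosslinking proteins, matricellular proteins, proteoglycans, integrins, ADAM and ADAMTS enzymes, matrix metalloproteinases (MMP) and their tissue inhibitors (TIMP), serpins and cathepsins. The symbols picked 137 of 8944 annotated genes, of which 135 had a value on every array, among 8798 such genes in all. Of the 185 probes of these genes, 180 had a value on every array. Symbols do not always give function: Itgb3bp, which the rule takes in with the integrins, encodes a centromere protein, and the ADAMTS-like genes encode proteins without a protease domain.

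The retina RNA was a pool from adult C57/B6 mice and the cortex RNA a pool from Swiss-Webster mice on postnatal day 1. Both pools were labelled and hybridised together on each of 5 two-colour Agilent arrays, retina with Cy5 and cortex with Cy3, and the labels call the arrays technical replicates. Strain, age, tissue and dye change together between the pools and cannot be told apart, and no animal-to-animal spread was measured. The sources used here do not give the sex or number of the animals in either pool. In such tissue pools, fewer cells of a type and less RNA per cell cannot be told apart.

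The matrix is the meshwork of secreted proteins between cells. Sheet-like basement membranes, built of laminin, type IV collagen, nidogen and heparan sulfate proteoglycans, line the inner face of the retina, the brain surface and all vessels, while brain and retinal neuropil hold little fibrillar collagen and are rich in hyaluronan, chondroitin sulfate proteoglycans and tenascins. Cells hold on to these proteins through integrins, which pair an alpha with a beta chain. Secreted and membrane-bound metalloproteinases cut the matrix outside cells, cathepsins degrade proteins mostly in lysosomes, and TIMPs and serpins block proteases.

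Values are log2 ratios of retina over cortex, the mean ± SD over n = 5 arrays of the mean of a gene's probes, and a ratio of 1 is a 2-fold difference. The direction and the log base are likely ones, stated by no label or header. If the direction were the opposite, all signs would turn. Photoreceptor markers stood on the retina side (Cdhr1 4.30 ± 0.05, Cngb1 2.97 ± 0.23, Opn1sw 3.28 ± 0.09; 3 of 3 measured) and 5 of 5 measured markers of immature cortical neurons on the cortex side, from -3.99 ± 0.04 for Dcx to -2.69 ± 0.09 for Neurod6. The words higher and lower are kept for genes where limma's test against a minimum of 2-fold gave a Benjamini-Hochberg adjusted p under 0.05 over all 8798 genes, and "above 0" or "below 0" for genes where limma's test against a ratio of 0 did. All p-values measure only how far 5 hybridisations of the same RNA spread.

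Few of these genes differed 2-fold between the pools. The aggrecan-cleaving protease gene Adamts5 and the lysosomal protease gene Ctsf were about 4 times higher in retina, at 4.42-fold and 4.03-fold, and the proteoglycan genes Agrn and Bgn were lower, at 3.45-fold and 2.33-fold. These were 4 of 135 genes or 2.96%, 2 higher and 2 lower, where 6.63% of all genes were called, 2.8% higher and 3.83% lower. The median ratio was -0.05 and the quartiles were -0.42 and 0.15, against a median of -0.0048 and quartiles of -0.30 and 0.23 over all genes. Within 0.5 log2 of 0 lay 99 of 135 genes, or 73.3%, against 72.0% of all genes. The mean itself, untested, was 2-fold or more from 0 in 13 genes (4 toward retina, 9 toward cortex), which is 9.63% against 9.66% of all genes. Each of the 4 genes past the 2-fold test had 1 probe. The Bgn call held in 6 of the 17 fits that kept the 2-fold minimum and the log base.

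Grouped by role, 8 of 12 groups, with 93 genes, had no gene past limma's 2-fold test, and 1 of those 93 genes, Serpinb6a, had an unadjusted p under 0.05.

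Small ratios were often repeatable. Against a ratio of 0, limma called 89 of the 135 genes, 39 above and 50 below, or 65.9% against 73.7% of all genes (37% above and 36.7% below). These shares of all genes are the background of the counts by group below. The ratio had one sign across the 5 arrays for 93 of these genes, or 68.9%, against 73.5% of all genes.

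**Figure D1:**
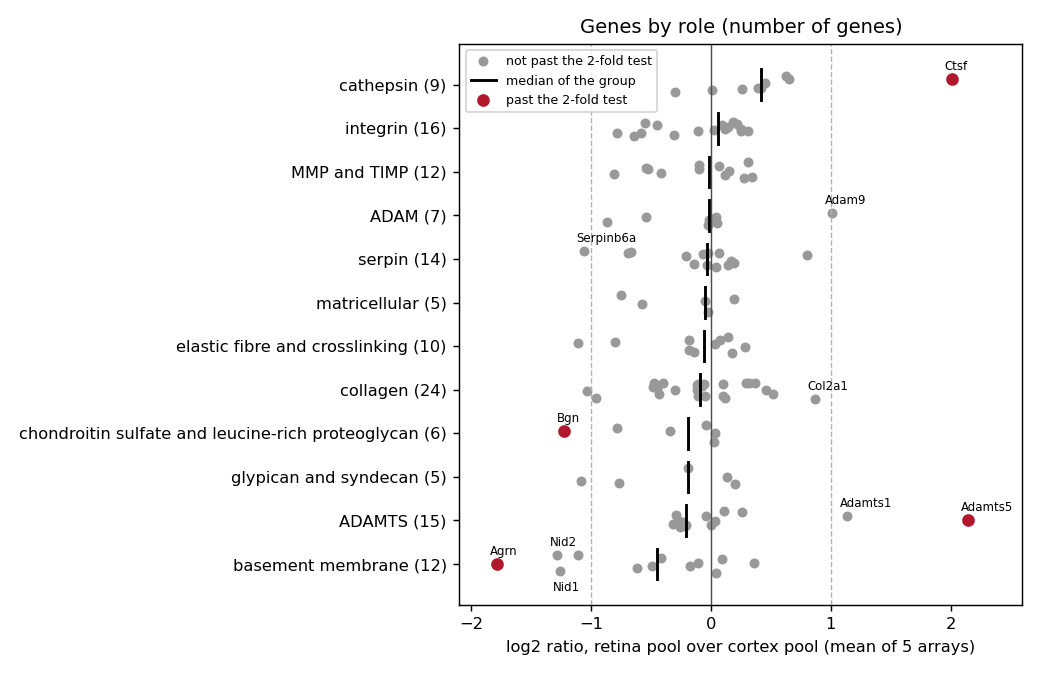
Log2 ratio of retina over cortex for the 135 measured genes, grouped by role, each point the mean of 5 arrays of 1 gene and each black bar the median of a group; vertical scatter within a row has no meaning. Past the 2-fold test lie 2 genes on the retina side, Ctsf and Adamts5, and 2 on the cortex side, Agrn and Bgn, and the group medians run from -0.45 for basement membrane genes to 0.42 for cathepsins.

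Basement membrane genes other than collagens lay mostly on the cortex side, with a median of -0.45 over 12 genes. The test against 0 placed 7 below 0 and 1 above and did not call 4, and 1 of the 7, Agrn, was lower by the 2-fold test. Over all genes 36.7% were below 0, 37% above 0 and 3.83% lower by the 2-fold test. Agrn encodes agrin, a heparan sulfate proteoglycan that clusters acetylcholine receptors at the neuromuscular junction and is also made in brain and retina. It read -1.87, -1.75, -1.78, -1.93 and -1.61 on arrays 1 to 5, a mean of -1.79 ± 0.12 with an adjusted p of 5.63e-05 from limma's 2-fold test. The 5 values lay close together and all stood well beyond 2-fold. Both nidogens, which link laminin to type IV collagen, had similar means and missed the 2-fold test. Nid2 read -1.64, -1.27, -1.30, -1.13 and -1.09, a mean of -1.29 ± 0.22 with an adjusted p of 0.0922 from limma. Nid1 read -1.12, -1.51, -1.03, -1.36 and -1.27, a mean of -1.26 ± 0.19 with an adjusted p of 0.0838 from limma. Each of these 10 nidogen values was beyond 2-fold on the cortex side, and array 1 gave the lowest value of Nid2 while array 2 gave that of Nid1. Nid1 was called lower in 3 of 17 fits, without array 3, without arrays 1 and 3 and with arrays scaled alike, and its adjusted p from limma ran from 0.0066 to 0.504.

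The laminin chains did not move as a block. The alpha-4 chain gene Lama4, a laminin of vessels, stood at -1.11 ± 0.20, with array 5 at -0.77 and the other arrays between -1.27 and -1.10. The muscle and brain vessel chain gene Lama2 stood at -0.61 ± 0.15 and Lamb2 at -0.11 ± 0.08, both below 0. Lama5, the alpha-5 chain of mature basement membranes, was above 0 at 0.36 ± 0.06. The chains Lama1 (-0.18 ± 0.18), Lama3 (0.05 ± 0.12) and Lamc1 (-0.41 ± 0.45) were not called, and Lamb1 is described with the probes that disagree. Perlecan, Hspg2, was close to 0 at 0.09 ± 0.09. Its probes, at -0.13 and 0.32, lay on either side of 0.

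The promoter of Agrn is shown because Agrn was the lowest of all 135 genes. The windows printed here run from 250 bases before to 50 bases after a RefSeq transcription start, in assembly GRCm38.p6, written 5′ to 3′. They are reference sequence and were not measured in these mice. RefSeq held such a window for 90 of the 135 genes. Capitals mark matches, on either strand, to any of 5 short motifs searched: the GC box GGGCGG, the CCAAT box CCAAT, the TATA box TATAAA, the E-box CACGTG and GGATTA, a core bound by the photoreceptor homeodomain factors CRX and OTX2. GC boxes can overlap each other.
Agrn, chr4:156197439-156197738, minus strand: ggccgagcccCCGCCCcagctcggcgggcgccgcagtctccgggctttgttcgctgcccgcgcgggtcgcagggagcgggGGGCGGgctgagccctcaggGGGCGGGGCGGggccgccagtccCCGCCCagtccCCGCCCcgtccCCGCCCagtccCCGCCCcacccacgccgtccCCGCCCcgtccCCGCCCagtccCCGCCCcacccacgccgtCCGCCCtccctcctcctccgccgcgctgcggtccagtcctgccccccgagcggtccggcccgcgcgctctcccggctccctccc
This window, at the more upstream of 2 listed starts, held 12 GC boxes and no match to the other 4 motifs. Its GC content was 83.3%, against a median of 52.7% over all 32851 windows. A GC box occurred in 35.7% of all windows, a CCAAT box in 37.4%, a TATA box in 13.6%, the E-box in 7.15% and GGATTA in 7.06%.

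Collagens spread to both sides of 0, with a median of -0.09 over 24 genes, 8 above 0, 10 below 0 and 6 not called. Of all genes, 37% were above 0 and 36.7% below. The collagen with the highest ratio was Col2a1, type II collagen of cartilage and of the vitreous. It read 0.89, 0.87, 0.79, 0.90 and 0.87 on arrays 1 to 5, a mean of 0.87 ± 0.04. All 5 values were on the retina side and short of 2-fold. Type I alpha-1, Col1a1, the main chain of tendon and bone collagen, stood at 0.52 ± 0.05. Its partner chain Col1a2 did not move with it, at -0.06 ± 0.04 with probes at -0.30 and 0.19. Type III, Col3a1, of vessel walls and meninges, was below 0 at -0.40 ± 0.06. A further probe of Col3a1 had no value on any array. Col8a1 (0.46 ± 0.08), a collagen of endothelial matrices, and the vessel basement membrane collagens Col15a1 (0.37 ± 0.06) and Col18a1 (0.29 ± 0.09) were above 0.

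The lowest collagen means came with a wide spread between arrays. Col9a3, a chain of type IX collagen that coats type II fibrils, read -0.85, -1.57, -0.33, -1.41 and -1.03, a mean of -1.04 ± 0.49. Col5a2, of fibril-initiating type V collagen, read -0.76, -1.73, -0.68, -0.95 and -0.66, a mean of -0.96 ± 0.45. Without array 2 the other values of Col5a2 ran from -0.95 to -0.66. Both genes were below 0 and neither passed the 2-fold test, with an adjusted p of 1 from limma.

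Type IV collagen, the network former of basement membranes, split between its chains. The common chains Col4a1 (-0.47 ± 0.06) and Col4a2 (-0.43 ± 0.04) had nearly equal ratios below 0. Their difference, Col4a1 minus Col4a2, was -0.04 ± 0.04 over the arrays, with Col4a1 the lower on 4 of 5. The value of Col4a2 rests on probes at -0.12 and -0.74, however, so the match of the means is not a match of probes. The X-linked pair Col4a5 (-0.49 ± 0.08) and Col4a6 (-0.11 ± 0.08) differed by 0.37 ± 0.03, with Col4a6 the higher on 5 of 5 arrays. Col4a4, a chain of mature specialised basement membranes, was above 0 at 0.32 ± 0.10.

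Col4a1 and Col4a2 lie head to head and share a promoter region. Their windows, one per strand, are shown because the genes share this region and had close ratios.
Col4a1, chr8:11312777-11313076, minus strand: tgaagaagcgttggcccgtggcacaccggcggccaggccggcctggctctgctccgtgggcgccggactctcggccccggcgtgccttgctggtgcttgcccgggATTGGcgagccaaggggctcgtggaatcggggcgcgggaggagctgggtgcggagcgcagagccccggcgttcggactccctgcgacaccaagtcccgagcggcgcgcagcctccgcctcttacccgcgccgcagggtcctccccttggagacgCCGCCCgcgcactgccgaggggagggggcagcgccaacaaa
Col4a2, chr8:11312555-11312854, plus strand: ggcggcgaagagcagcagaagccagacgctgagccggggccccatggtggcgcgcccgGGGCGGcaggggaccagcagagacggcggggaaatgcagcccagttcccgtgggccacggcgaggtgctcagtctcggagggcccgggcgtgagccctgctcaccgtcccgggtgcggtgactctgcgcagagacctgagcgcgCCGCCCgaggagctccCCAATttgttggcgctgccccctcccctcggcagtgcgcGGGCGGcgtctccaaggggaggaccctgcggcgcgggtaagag
The windows overlap by 78 bases. The Col4a1 window held 1 GC box and 1 CCAAT box, and the Col4a2 window 3 and 1. The GC box of the Col4a1 window is the last one of the Col4a2 window, within the overlap, and is counted in both. Neither held a TATA box, an E-box or GGATTA.

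Type VI collagen, of microfibrils around cells and nerves, had small ratios. Neighbours Col6a1 (0.10 ± 0.09) and Col6a2 (0.12 ± 0.08) differed by 0.02 ± 0.08, less than the spread between arrays. Col6a3 stood at -0.12 ± 0.08, Col6a4 at 0.10 ± 0.06 and Col6a5 at -0.30 ± 0.11.

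Elastic fibre, fibronectin and crosslinking genes had no member past the 2-fold test among 10, with 2 above and 4 below 0. Fbn2, the fibrillin of developing microfibrils, read -0.66, -0.38, -0.99 and -1.54 on arrays 1 to 4 and lowest on array 5, at about 4-fold. That is a mean of -1.11 ± 0.66, on the cortex side on each array but with a wide range. Fibronectin, Fn1, which joins integrins to collagen, stood at -0.80 ± 0.61 from 3 probes. The probe with the widest spread read 1.48, -1.88, 0.08, -2.30 and -2.45, while another read only from -0.91 to -0.76. Without arrays 1 and 3, the fit of arrays 2, 4 and 5 called Fn1 lower at -1.23 (limma, adjusted p of 0.0202, up to 1 in other fits), while without arrays 2 and 4 it stood at -0.51. The lysyl oxidase gene Lox (-0.18 ± 0.08) and elastin, Eln (-0.18 ± 0.11), were slightly below 0, and Mgp, an inhibitor of calcification, slightly above at 0.28 ± 0.04.

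Biglycan, Bgn, a small leucine-rich proteoglycan of connective tissue that binds collagen, was lower in retina. It read -1.26, -1.44, -1.16, -1.08 and -1.16 on arrays 1 to 5, a mean of -1.22 ± 0.14. Its adjusted p of 0.0477 from limma's 2-fold test was close to the threshold. The call was lost when array 1, 3, 4 or 5 was left out, at an adjusted p of 0.163, 0.116, 0.0537 and 0.109 from limma, and kept without array 2. Over all alternatives that kept the 2-fold minimum and the log base its adjusted p from limma ran from 0.0368 to 0.359. Fibromodulin, Fmod, of the same family, was below 0 at -0.34 ± 0.24.

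The large chondroitin sulfate proteoglycans of brain matrix differed from each other. Versican, Vcan, which is abundant in embryonic neural tissue, was below 0 at -0.78 ± 0.12, with its 3 probes at -0.46, -1.09 and -0.80. Neurocan, Ncan, another brain lectican, was flat at 0.04 ± 0.02. The link proteins Hapln1 (-0.04 ± 0.09) and Hapln4 (0.02 ± 0.15), which fasten lecticans to hyaluronan, were not called. Neighbours Hapln1 and Vcan thus differed by 0.74 ± 0.15 with Hapln1 the higher on 5 of 5 arrays, whereas neighbours Hapln4 and Ncan differed by -0.01 ± 0.14.

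Of the cell-surface heparan sulfate proteoglycans, 3 of 5 were below 0 and 2 above. The neuronal syndecan gene Sdc3 read -0.60 on array 1 and -1.24, -1.23, -1.23 and -1.13 on arrays 2 to 5, a mean of -1.09 ± 0.28. Without array 1 it stood at -1.21 and was called lower, with an adjusted p of 0.0125 from limma, which was up to 1 in other fits. Sdc1 stood at -0.77 ± 0.18 and Sdc2 at 0.20 ± 0.02. The glypicans, anchored in the membrane by a lipid, were near 0: Gpc1 at 0.13 ± 0.05 and Gpc4 at -0.19 ± 0.08.

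Matricellular proteins, which modulate adhesion more than they build structure, had no gene of 5 past the 2-fold test. Tenascin-C, Tnc, a glycoprotein of developing brain and of glia, had a mean of -0.75 ± 0.06 that hides opposite probes. One probe read -2.06, -1.95, -1.89, -1.93 and -1.88, a mean of -1.94 ± 0.07. The other read 0.34, 0.53, 0.41, 0.52 and 0.40, a mean of 0.44 ± 0.08. The 2 probes did not overlap on any array, and their gap of 2.38 was the widest within any of these genes, so the direction for Tnc depends on the probe. Sparcl1, or hevin, an astrocyte-secreted synapse factor, stood at -0.58 ± 0.07, and its relative Sparc at 0.19 ± 0.13 with array 5 apart at 0.42. The thrombospondins Thbs1 (-0.05 ± 0.05) and Thbs2 (-0.03 ± 0.05) were not called.

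Integrins had small ratios, with a median of 0.06 over 16 genes, counting Itgb3bp (0.19 ± 0.09). None passed the 2-fold test, 6 were above 0 and 4 below, where 37% and 36.7% of all genes were. The common beta-1 chain gene Itgb1 was below 0 at -0.58 ± 0.12, with its probes at -0.81 and -0.36. Alpha chains that pair with it were on either side. Itga8 (-0.45 ± 0.11) and Itga3 (-0.31 ± 0.17), a laminin receptor chain, were below 0. Itga7 (0.31 ± 0.02), another laminin receptor chain, Itga5 (0.25 ± 0.10), of the fibronectin receptor, and Itga4 (0.25 ± 0.17) were above 0. The probes of Itga5 lay at -0.17 and 0.67, so its sign also depends on the probe. Itgav (0.09 ± 0.08) and Itgb5 (0.14 ± 0.25), which pair as a vitronectin receptor and serve phagocytosis of outer segments in the pigment epithelium, were not called. The mean of Itgav comes from probes on either side of 0, at 0.34 and -0.16.

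Some integrin genes had a wide spread between arrays. The collagen receptor chain gene Itga1 read -0.49, -1.45, -0.13, -0.81 and -1.03, a mean of -0.78 ± 0.51 and below 0. Itga9 read 0.53, -1.79, 0.78, -1.87 and -0.87, with both signs among the arrays and the largest SD of the 135 genes at 1.25. Itga6, a laminin receptor chain, read 0.56, -0.64, -0.34, -0.63 and -1.69, also with both signs. Neither Itga9 nor Itga6 was called. Itga1 and its neighbour Itga2 (0.03 ± 0.05) differed by 0.81 ± 0.52.

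**Figure D2:**
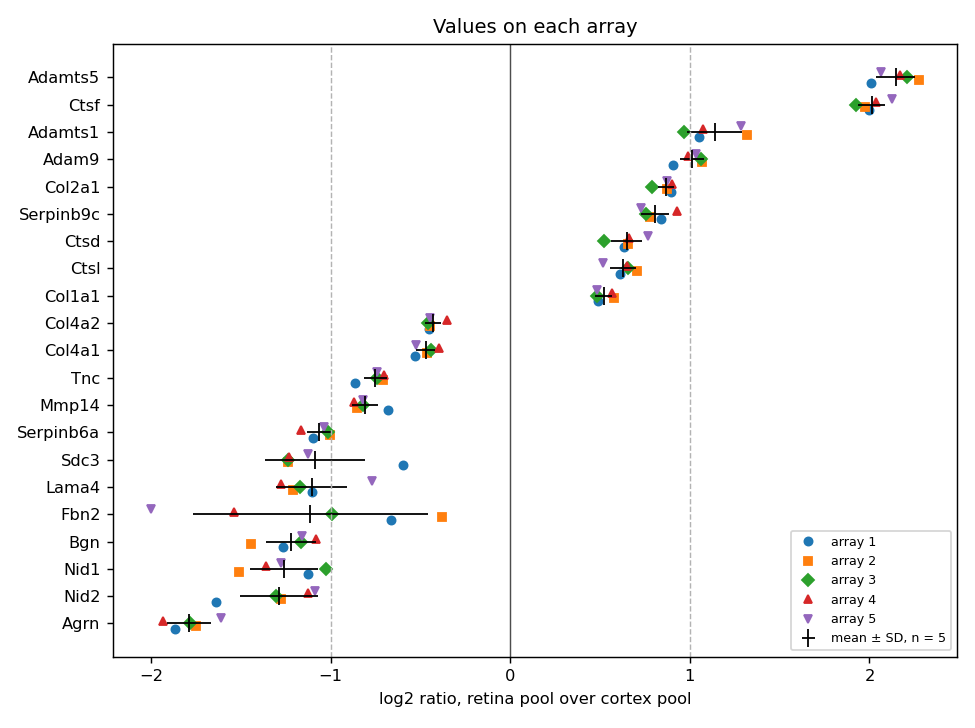
Log2 ratio on each of the 5 arrays for 21 genes chosen for description after their values were seen, one marker shape per array, with the mean ± SD (n = 5) as a black bar and dashed lines at 2-fold. Adamts5 and Ctsf stand at about 2 on every array and Agrn between -1.93 and -1.61, while Fbn2 runs from -0.38 to about 4-fold below cortex.

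ADAMTS genes, secreted metalloproteases with thrombospondin repeats, showed the largest ratio of the 135 genes beside a majority of small ones. Adamts5 read 2.01, 2.28, 2.21, 2.17 and 2.06 on arrays 1 to 5, a mean of 2.14 ± 0.11 with an adjusted p of 5.45e-06 from limma's 2-fold test. Its direct neighbour on chromosome 16, Adamts1, which also cuts aggrecan and versican, read 1.05, 1.32, 0.97, 1.07 and 1.29. That is a mean of 1.14 ± 0.15, which missed the 2-fold test with an adjusted p of 0.382 from limma. Both genes were on the retina side on 5 of 5 arrays, and the difference of Adamts1 minus Adamts5 was -1.01 ± 0.17. The other 13 genes lay between -0.32 and 0.26, the limits being Adamts10 and the ADAMTS-like Adamtsl1. Of all 15 genes, 4 were above 0, 7 below 0 and 4 not called, with a median of -0.21. Another aggrecanase, Adamts4, was below 0 at -0.21 ± 0.17. Adamts18, mutated in people with eye and retinal disease, was below 0 at -0.23 ± 0.05.

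The promoter of Adamts1 is shown for the pair.
Adamts1, chr16:85803064-85803363, minus strand: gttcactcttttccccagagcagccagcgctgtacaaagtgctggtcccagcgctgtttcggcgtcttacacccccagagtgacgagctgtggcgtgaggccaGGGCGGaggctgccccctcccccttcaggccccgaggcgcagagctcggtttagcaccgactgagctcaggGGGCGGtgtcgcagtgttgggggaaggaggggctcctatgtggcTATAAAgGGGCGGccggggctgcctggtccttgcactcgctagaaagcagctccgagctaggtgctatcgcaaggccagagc
It held 3 GC boxes and 1 TATA box, and no CCAAT box, E-box or GGATTA.

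The ADAM genes, membrane-bound shedding enzymes, were led by Adam9, which is mutated in inherited cone-rod dystrophy in people. It read 0.91, 1.07, 1.06, 0.99 and 1.03, a mean of 1.01 ± 0.07, almost exactly 2-fold, with probes at 1.22 and 0.80. The higher probe alone passed the 2-fold test with an adjusted p of 0.00443 from limma over 11500 probes. The shedding enzymes Adam17 (0.05 ± 0.11) and Adam15 (0.04 ± 0.06) were not called. Adam22, a catalytically inactive synaptic receptor, was below 0 at -0.55 ± 0.02, while the related Adam23 was flat at -0.02 ± 0.05. Adam24, known as a testis protease, had a mean of -0.87 ± 0.84, with -0.04, -1.88, -0.11, -1.60 and -0.71 on the arrays.

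Matrix metalloproteinases and their inhibitors had no gene of 12 past the 2-fold test, 4 above 0 and 4 below. Among all genes 37% were above 0 and 36.7% below. The membrane-anchored Mmp14, which activates other MMPs, was farthest from 0 at -0.81 ± 0.07, from -0.87 to -0.68 on the arrays. Mmp11 stood at -0.53 ± 0.09 and the gelatinase gene Mmp9 at 0.34 ± 0.05. The other gelatinase, Mmp2, was not called at 0.07 ± 0.12. The inhibitors split: Timp2 was below 0 at -0.54 ± 0.04, from probes at -0.54, -0.19 and -0.91, and Timp1 above 0 at 0.27 ± 0.13. Timp3, the gene of Sorsby fundus dystrophy in people, read 0.43, 0.55, 0.42 and 0.52 on arrays 1 to 4 and -0.37 on array 5, and was not called at 0.31 ± 0.39. Only 1 of its 2 probes was low on array 5, at -1.08, while the other ran from 0.18 to 0.35 over all arrays.

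Serpins had no gene of 14 past the 2-fold test, 3 above 0 and 4 below. Serpinb6a, an inhibitor that acts inside cells, had its lowest value on array 4, at -1.16, and a mean of -1.06 ± 0.07 with an adjusted p of 0.619 from limma's 2-fold test. The collagen chaperone gene Serpinh1 stood at -0.70 ± 0.12, while the collagens split, with 10 below 0, 8 above and 6 not called. Neuroserpin, Serpini1, which inhibits tissue plasminogen activator in the nervous system, stood at -0.67 ± 0.05, and the gene of that protease, Plat, at -0.75 ± 0.03. Serpinf1, or PEDF, known as a product of the pigment epithelium, was flat at -0.03 ± 0.04. Serpinb9c was above 0 at 0.81 ± 0.08. Mouse serpins of the b6, b9, a1 and a3 families have close copies, so signals of such members can come from a relative and are uncertain.

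Cathepsins were the group with the highest median, 0.42 over 9 genes, with 1 higher in retina, 7 above 0 and 2 not called by limma. For all genes the shares were 2.8% higher and 37% above 0. Ctsf, a lysosomal cysteine protease gene whose loss causes a neuronal storage disease, read 2.00, 1.98, 1.93, 2.03 and 2.12 on arrays 1 to 5. That is a mean of 2.01 ± 0.07 with an adjusted p of 2.57e-06 from limma's 2-fold test, the smallest of the 135 genes. The others above 0 were far closer to it: the aspartic protease gene Ctsd at 0.65 ± 0.09, and the cysteine protease genes Ctsl at 0.63 ± 0.07, Ctsb at 0.42 ± 0.02, Ctsc at 0.40 ± 0.09 and Ctsh at 0.26 ± 0.12. The carboxypeptidase gene Ctsa, which protects lysosomal enzymes, stood at 0.45 ± 0.08. The SD over arrays leaves out the spread between probes. Probe means lay at 0.18, 0.35 and 0.72 for Ctsb, at 0.18 and 0.61 for Ctsc and at 0.81 and 0.49 for Ctsd. Ctsz (0.01 ± 0.06) and Ctse (-0.30 ± 0.35) were not called. Microglia carry much cathepsin message as a rule. Of 7 listed microglia markers, 3 were measured, all of them C1q genes. C1qc (-0.52 ± 0.10) and C1qb (-0.20 ± 0.18) were below 0, and C1qa (-0.07 ± 0.05) was not called. Any part of microglia in the cathepsin ratios was not tested.

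The promoter of Ctsf is shown because its ratio was the most firmly beyond 2-fold.
Ctsf, chr19:4854915-4855214, plus strand: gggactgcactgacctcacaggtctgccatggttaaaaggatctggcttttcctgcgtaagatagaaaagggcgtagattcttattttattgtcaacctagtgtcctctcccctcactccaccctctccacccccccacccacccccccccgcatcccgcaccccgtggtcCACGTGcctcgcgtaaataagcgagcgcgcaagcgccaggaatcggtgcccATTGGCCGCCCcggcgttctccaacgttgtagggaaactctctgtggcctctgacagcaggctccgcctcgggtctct
It held 1 E-box, 1 CCAAT box and 1 GC box, the last 2 side by side, with no TATA box and no GGATTA.

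Further genes of matrix assembly, adhesion and proteolysis, listed outside the symbol rule, gave 6 calls among 46 measured genes, 3 higher and 3 lower, where 6.63% of all genes were called. Their median was 0.02, with 16 above 0 and 17 below, where 37% of all genes were above and 36.7% below. Higher were Mfge8, a secreted bridge between dying cells and integrins, at 1.54 ± 0.09, cystatin C, Cst3, an inhibitor of cysteine cathepsins, at 1.25 ± 0.12, and kindlin-2, Fermt2, an integrin activator, at 1.20 ± 0.08. Lower were periostin, Postn, a matricellular protein of connective tissue, at -1.86 ± 0.27, the tenascin-binding receptor phosphatase Ptprz1 at -1.85 ± 0.05, and decorin, Dcn, a collagen-binding relative of biglycan, at -1.35 ± 0.21. Legumain, Lgmn, a lysosomal protease that processes cathepsins, stood at 1.11 ± 0.08 and missed the 2-fold test (limma, adjusted p of 0.128). Calls that depended on single arrays were those of Dcn (adjusted p of 0.0818 without array 3 and 0.126 without array 5 from limma), Cst3 (0.0597 without array 3 and 0.0546 without array 4) and Fermt2 (0.0537 without array 4). Over the alternatives that kept the 2-fold minimum and the log base, the adjusted p from limma ran from 0.0172 to 0.126 for Dcn. By the same test it ran from 0.00297 to 0.177 for Cst3 and from 0.00293 to 0.187 for Fermt2. Focal adhesion genes varied: the integrin-linked adaptor gene Parva (0.76 ± 0.07) and Vcl (0.11 ± 0.09) were above 0, and Pxn (-0.10 ± 0.02) and Tln1 (-0.33 ± 0.24) below, Tln1 from probes at -0.78 and 0.12. Dystroglycan, Dag1, the receptor that binds agrin and laminins, was below 0 at -0.65 ± 0.03.

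Several markers of the cells that make much of this matrix differed between the pools. In the fibroblast and meninges list, 3 of 8 measured genes were lower, Postn, Dcn and Igfbp2 (-1.41 ± 0.04). Ogn (-0.97 ± 0.47) and Col3a1 were below 0. Col1a1 went the other way, above 0, and Col1a2 and Slc6a13 (-0.11 ± 0.14) were not called. The list mean ran from -0.78 to -0.62 over the arrays. Postn, Dcn, Col1a1, Col1a2 and Col3a1 are matrix genes described above, so the list is not separate from them. In the endothelium and pericyte list, 2 of 6 were higher, Flt1 (1.44 ± 0.08) and Kdr (1.16 ± 0.08), while Cdh5 (-0.47 ± 0.04), Pdgfrb (-0.44 ± 0.08) and Rgs5 (-0.15 ± 0.07) were below 0 and Pecam1 (0.14 ± 0.17) was not called, with a list mean from 0.26 to 0.30. Among 6 measured markers of Müller glia and astrocytes, 3 were higher, Dkk3 (2.69 ± 0.08), Clu (2.18 ± 0.15) and Aldoc (1.34 ± 0.10), and Gja1 (-1.48 ± 0.14) was lower as the mean of probes at -2.45 and -0.51, with a list mean from 0.82 to 0.97. Of the oligodendrocyte lineage list, Olig1 was below 0 at -1.01 ± 0.07 and Mog (-0.01 ± 0.13) was not called, with a list mean from -0.59 to -0.43. The list of microglia had a mean from -0.35 to -0.21. The pigment epithelium list had 1 measured gene of 7, Ttr, which was lower at -1.40 ± 0.04. With 1 gene, the list does not show how much pigment epithelium either pool held. The part of these cell types in the matrix gene ratios was not tested.

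Neighbouring genes of these families were compared as pairs, since many lie in tandem. Of 12 pairs with no protein-coding gene between them in RefSeq, 9 or 75% had means of one sign, against 50.4% of the 4068 such pairs among all measured genes, a difference that was not tested on so few pairs. Besides those given above, Col3a1 and Col5a2 differed by 0.56 ± 0.46, with Col3a1 the higher on 5 of 5 arrays. Col6a5 minus Col6a4 was -0.40 ± 0.11 and Serpinf1 minus Serpinf2 (0.14 ± 0.02) was -0.17 ± 0.04, each on one side of 0 on 5 of 5 arrays. Serpinb6b (-0.06 ± 0.14), Serpinb9 (-0.14 ± 0.15) and Serpinb9b (-0.03 ± 0.04), in a row on chromosome 13, did not differ beyond their spread.

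**Figure D3:**
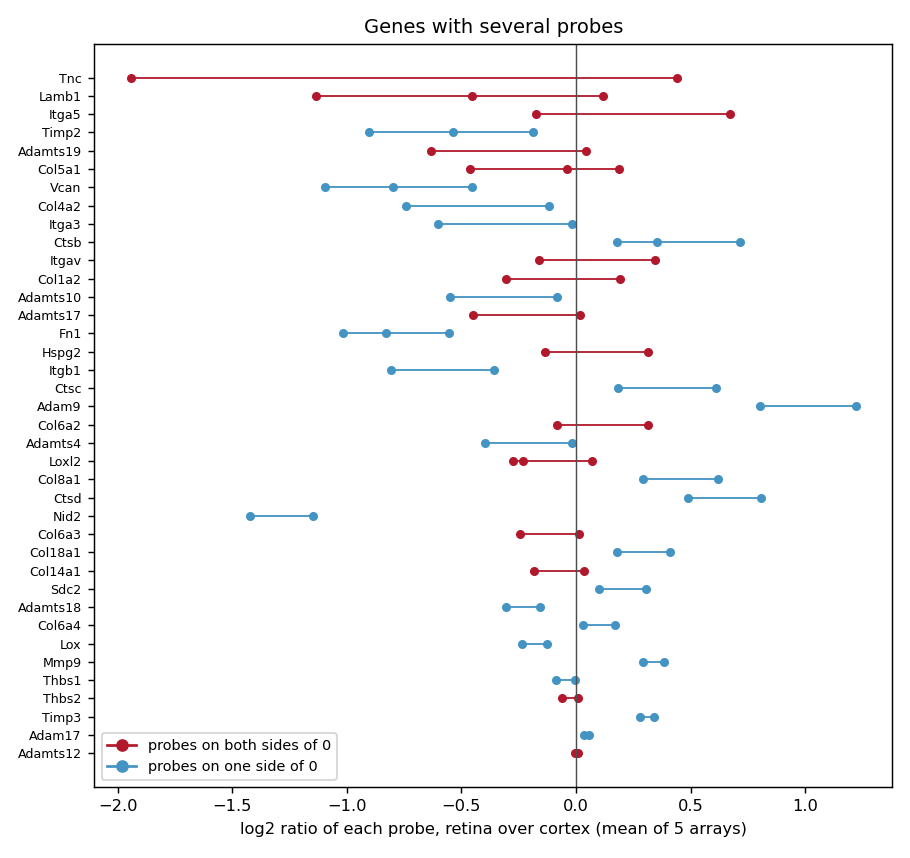
Log2 ratio of each probe, the mean of 5 arrays, for the 38 genes with several probes on every array, sorted by the range between probes. In 15 genes the probes lie on both sides of 0, with Tnc the widest at -1.94 and 0.44.

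Probes of one gene often disagreed. Among 38 genes with several probes the median range of probe means was 0.41, against 0.38 over all 2086 such genes, and in 15 of them the probes differed in sign, as they did in 850 of all such genes. Taken singly, 7 of 180 probes passed limma's 2-fold test, or 3.89%, against 6.77% of all 11500 probes. They were the single probes of Adamts5, Ctsf and Agrn and one probe each of Adam9, Lamb1, Nid2 and Tnc. The single probe of Bgn missed, with an adjusted p of 0.0513 from limma's 2-fold test over all probes. The 3 probes of the laminin beta-1 gene Lamb1 read 0.12 ± 0.09, -0.45 ± 0.65 and -1.14 ± 0.07, so its mean of -0.49 ± 0.19 stands for none of them. The middle probe of Lamb1 read 0.06, 0.11, -0.14, -1.28 and -1.02 on arrays 1 to 5. For Nid2 the probe that passed read -1.42 ± 0.08 and the other -1.15 ± 0.38.

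The genes with the widest spread had an order among the arrays. Of 13 genes with an SD over 0.4, 10 read lower on both arrays 2 and 4 than on both arrays 1 and 3, and 0 read higher on both. Over all genes, 352 had such an SD, and 72.7% of them read lower and 2.27% higher on arrays 2 and 4. An SD over 0.4 occurred in 9.63% of the matrix, integrin and protease genes and in 4.00% of all genes, while the median SD was 0.092 and 0.085. Of the 13 genes, 12 or 92.3% had means below 0, against 77.6% of the 352 genes, among them Col9a3, Col5a2, Itga1 and Fn1 described above. Pearson's r between arrays across these 135 genes ran from 0.77 for arrays 2 and 3 to 0.95 for arrays 1 and 3, against 0.88 to 0.96 across all genes. Genes are no independent replicates, and all arrays share the pools.

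**Figure D4:**
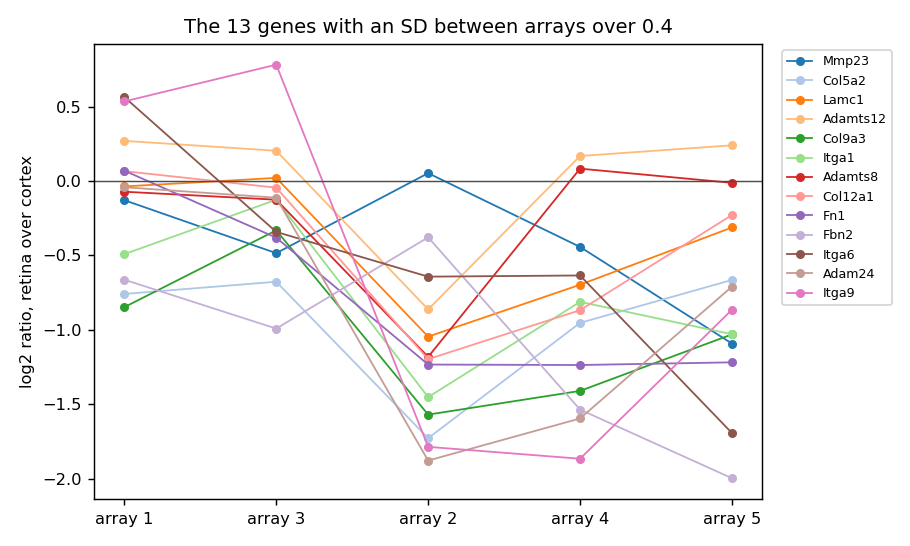
Log2 ratio on each array, with arrays 1 and 3 drawn beside each other and before arrays 2 and 4, for the 13 genes with an SD between arrays over 0.4; lines join the values of 1 gene and the arrays have no order. In 10 of the 13 genes both values on arrays 2 and 4 lie below both values on arrays 1 and 3.

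The retina calls of Adamts5 and Ctsf and the cortex call of Agrn did not rest on that split. Without arrays 2 and 4 all 3 passed the 2-fold test, and so they did without arrays 1 and 3. Over the 17 fits that kept the 2-fold minimum and the log base, the mean stayed from 2.09 to 2.18 for Adamts5, from 1.98 to 2.04 for Ctsf and from -1.83 to -1.75 for Agrn.

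The 2 genes without a value on every array had none on array 4 alone. On the other 4 arrays the Adamts6 probe read from -0.36 to -0.25 and that of the epithelial integrin gene Itgb6 from 0.18 to 0.32. Extra probes of Lamb1 and Lamc1 also lacked array 4, and had both signs on the others.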

How the data were processed

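The deposited table holds 1 signed log10 ratio per probe and array for 21446 probes. It gives no spot intensities, so how far a probe stood above background is unknown, and precision is limited by having 5 arrays. The log10 base is likely because the deposited values stop at 2 and -2. The array medians of the deposited values were 0, 0, 0, 0 and -7.32e-05. The columns thus stand centred, and the method of centring, the background correction and the dye normalization are in none of the sources used here. The direction is likely retina over cortex, from the dyes and titles per the labels.

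The deposited log10 values times 3.32 are the log2 ratios used. An exact 0 (174, 203, 214, 1068 and 406 per array) was read as no value. The platform annotation gave 1 symbol for 11813 probes, several for 559 and none for 9074, and 11782 matched RefSeq (GRCm38.p6) by gene identifier. Probes with a value on every array were averaged per gene. An intercept was fitted with limma 3.58.1 in R 4.3.3 and tested with eBayes against 0 and with treat against 2-fold, two-sided, with Benjamini-Hochberg adjustment over all genes. The procedure was tested on simulated data. The p-values compare 2 pools.

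The genes and lists were chosen with earlier results of these data known. Named were all genes past the 2-fold test, the gene farthest from 0 in each other group, the 3 with the largest SD, the 3 with the widest probe range and listed pathway genes past the test. All further genes were named after their values were seen. Alternatives changed arrays, centring, scaling, missing values, probe rule, prior, weights, noise filter, minimum fold and log base.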

Additional observations from a re-analysis of the deposited data

Results flagged for a closer look

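Each of the 135 genes was checked for 1 array far from the other 4, by Dixon's criterion for 5 values. It marked 17 genes, or 12.6%, against 705 of all 8798 genes, or 8.01%, where chance gives about 5%. Whether the share differs from that of all genes was not tested. The array apart was array 1 for 3 genes, array 2 for 6, array 3 for 2, array 4 for 1 and array 5 for 5.

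On array 2, Adamts12 read -0.86 where the others lay between 0.17 and 0.27, and Adamts8 read -1.18 against -0.13 to 0.08. Adamtsl3 read -0.67 against -0.21 to -0.15, and Col5a2 -1.73 against -0.95 to -0.66. Itgb5 read -0.30 against 0.16 to 0.33, while Itga4 stood higher there, at 0.53 against 0.11 to 0.23.

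On array 5, Timp3 read -0.37 against 0.42 to 0.55, Serping1 -0.45 against 0.24 to 0.52 and Loxl4 -0.22 against 0.19 to 0.31. The Timp3 probes read -1.08 and 0.33 there, so only 1 of the 2 stood on the cortex side. Adamts19 read -0.47 against -0.30 to -0.23, and Sparc 0.42 against 0.10 to 0.18.

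The array apart moved the ratio toward 0 for Sdc3 on array 1, at -0.60 against -1.24 to -1.13. The remaining gaps were small: Tnc at -0.86 on array 1 against -0.74 to -0.70, Serpinf2 at 0.18 on array 1 against 0.13 to 0.14, Col2a1 at 0.79 on array 3 against 0.87 to 0.90, Lama5 at 0.25 on array 3 against 0.38 to 0.39, and Col4a2 at -0.35 on array 4 against -0.46 to -0.44. What sets these arrays apart was not tested.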

How the results depend on the processing

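No paired analysis was possible because the 5 arrays form 1 group. The fits without arrays 2 and 4 and without arrays 1 and 3 were chosen after seeing the data. With any single array left out, 3 to 4 genes passed the 2-fold test, 2 of them higher and 1 to 2 lower: Bgn was lost 4 times and Sdc3, Nid1 and Lama4 were gained once each. Arrays scaled to one median absolute deviation also gave Nid1 in place of Bgn (adjusted p of 0.0584, limma), and without arrays 1 and 3 Nid1 and Fn1 were gained and Bgn lost, 5 genes in all. Over the fits with a single array left out, all genes past the test numbered 528 to 562, and those of the 135 off 0 numbered 82 to 89. One gene, Agrn, was lower in place of 2 with values on at least 3 arrays, with an exact 0 read as a ratio of 1, with the probe nearest to 0, with array weights and without arrays 2 and 4. With the median probe 4 genes were lower, Nid2 and Tnc in addition. For a gene with an even number of probes this rule took the lower middle one. Nid2 and Tnc were thus read from their lower probe alone, at -1.42 and -1.94. A minimum of 1.5-fold gave 16 genes, 6 higher and 10 lower, of 1408 in all. A minimum of 4-fold gave 0 of 105, and reading the values as log2 gave 0 of 7, by limma. The median ratio moved to -0.0874 with the median probe and to -0.0175 with the probe nearest to 0. The median-probe rule can only lower the ratio of a gene with 2 probes, so its direction was set in advance for such genes. The median SD fell to 0.0782 without arrays 2 and 4 and to 0.0794 without arrays 1 and 3. Both are SDs over 3 arrays in place of 5, so they are not directly comparable with the main value. Signs reversed for Itga5 with the median probe or the probe nearest to 0 (-0.17), for Tnc (0.44) and Lamb1 (0.12) with the probe nearest to 0, and for Itga9 without arrays 2 and 4 (0.15). Of the values of named genes, 334 kept side and sign, 22 fell below the 2-fold test, 2 passed it and 5 reversed. Beyond the direction set by the median-probe rule, the cause of these shifts was not tested.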
